A study of Rattus norvegicus with 6 samples.

Results

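The 10 genes described here encode 7 secreted proteins that carry the globular C1q domain and act at synapses, together with 3 receptors of the BAI family. They are C1ql1, C1ql2 and C1ql3 (C1q-like proteins), Cbln1, Cbln2, Cbln3 and Cbln4 (cerebellins), and Adgrb1, Adgrb2 and Adgrb3, the adhesion G protein-coupled receptors also named BAI1, BAI2 and BAI3. The members were taken by name from the probe sets whose platform annotation names exactly 1 gene. Each gene had 1 such probe set, so the members are 10 of 15310 single-gene probe sets and of 29215 probe sets in all. The rule itself reads gene names and annotation, not intensities.

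The cells were cortical neurons of Sprague-Dawley rat embryos at day 18, kept for 3 days in NB-N2 medium, per the labels. RNA from 3 samples of untreated neurons and from 3 samples of neurons given 10 nM C1q, the recognition protein of the classical complement pathway, for 3 h was measured on 1-colour Affymetrix arrays. All 6 samples share strain, age, culture time and medium. The labels do not state the source of the C1q, or whether the numbered samples came from separate cultures or embryos. The p-values therefore rest on array-to-array spread alone, and that spread can be technical.

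Cerebellins and C1q-like proteins share with complement C1q a globular domain that assembles as a trimer, and they are released by neurons into the synaptic cleft. There they tie a presynaptic to a postsynaptic protein. Cerebellins bind neurexins on one side and delta-type glutamate receptors, or DCC and neogenin in the case of Cbln4, on the other. C1q-like proteins bind the receptor BAI3, and at hippocampal mossy fibre synapses they also take part in placing kainate receptors. BAI receptors have large extracellular parts with thrombospondin repeats, and BAI1 also acts in the engulfment of dying cells through ELMO, DOCK and RAC. The comparison asks whether a short exposure to complement C1q was followed by a change in the transcripts of these related proteins and receptors.

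After C1q, none of the 9 members that could be tested passed the threshold. The 3 BAI receptor genes read brightly and near the same level in both groups, and their fold changes lay between 0.981 and 0.994. The cerebellin genes spanned a range from dim to moderate, with fold changes of 0.930 to 1.00025. C1ql1 and C1ql3 had fold changes of 1.02 and 1.08, and C1ql2 lay below the filter on dim probe sets and was not tested.

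Values are the deposited intensities on a linear scale in arbitrary units. Array medians lay between 147 and 155. Differences were computed on log2(intensity + 16), where a fold change understates the change of a dim gene. The brightest 60% of probe sets by mean, those above an intensity of 94.4, were tested with limma, and a call needed a Benjamini-Hochberg adjusted p under 0.05 over 17529 probe sets. Detection calls were not used, so the share of background in each intensity is unknown.

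Markers were read to check the label of the cells. All 6 pan-neuronal markers passed the filter, from 1165 for Rbfox3 to 8078 for Tubb3 in untreated neurons. Of 8 microglial markers 2 passed, and of 6 endothelial markers 2. Of 8 astrocyte markers 7 passed, with Aldoc the brightest at 1606. Of 6 matched oligodendrocyte lineage markers 5 passed, and of 7 matched radial glia markers 6, with Vim the brightest at 3010. All 5 matched excitatory neuron markers passed, from 348 for Slc17a6 to 6028 for Neurod6. The filter is a weak check, as 9 of 28 genes of other tissues also passed it. These counts therefore do not show that the cultures were free of glia. The summed intensities of the groups overlapped for every marker list other than blood, inhibitory neuron and radial glia. For the pan-neuronal markers, for example, they ran from 26832 to 29495 in untreated and from 26992 to 27945 in C1q-treated neurons. Among single tested probe sets the groups did not overlap for 5.72%. The summed intensity of 4 blood markers ran from 1234 to 1455 in untreated and from 1458 to 1585 in C1q-treated neurons, so the groups did not overlap. Hbb, the beta-globin gene, carried this, at 970 ± 83.2 against 1155 ± 67.3 (SD, n = 3 each), and the sums of Alas2, Pf4 and Ppbp without it overlapped, at 337 to 399 and 328 to 376. Nor did they overlap for 7 inhibitory neuron markers, at 13640 to 14338 against 13306 to 13548, or for 7 radial glia markers, at 7890 to 8007 against 7526 to 7844. The radial glia sums overlapped without Fabp7 or without Nes, and the inhibitory neuron sums without Sst or without Npy. These sums used the deposited scaling. Lower means were found for 6 of 7 tested inhibitory neuron markers, or 6 with quantile normalization and 5 with median centring. For the radial glia markers they were found for 5 of 6 tested, or 4 and 3 with these rescalings. No marker gene was called, and the part of these differences in the values below was not tested. In bulk RNA, fewer cells of a type and less RNA per cell cannot be told apart.

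**Figure D1:**
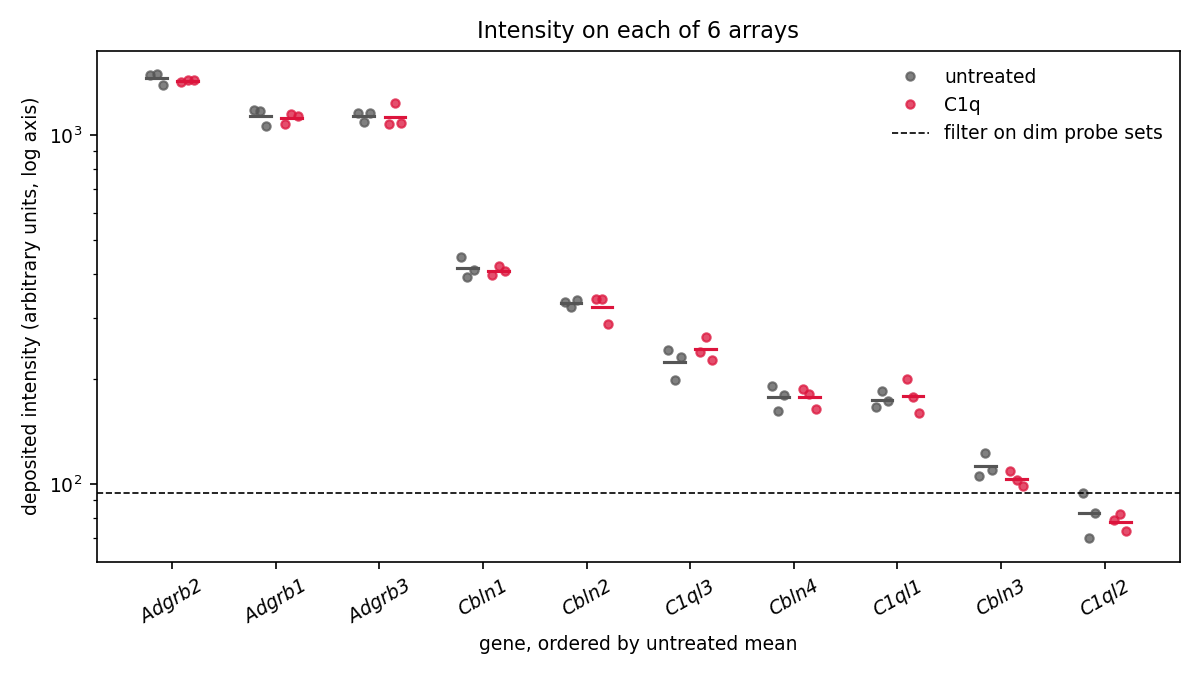
Deposited intensity (arbitrary units, log axis) of the 10 genes on each of 6 arrays, with untreated arrays in grey, C1q arrays in red, short bars at the group means and a dashed line at the filter intensity of 94.4. The points of both groups overlap for every gene, and no reading of the 3 Adgrb genes is under 1063.

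Among the ligands, C1ql1, expressed by the climbing fibre neurons of the hindbrain, read 166, 185 and 173 on the untreated arrays, numbered 1 to 3, and 200.1, 178 and 159.8 on the C1q arrays in the same order. Both its highest and its lowest reading were on C1q arrays, which enclose the untreated ones. Its mean was 175 ± 9.33 in untreated and 179 ± 20.1 in treated neurons (SD, n = 3 each). The fold change was 1.02, and its 95% limma interval, given in brackets for later genes, reached from 0.880 to 1.18.

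C1ql3, which is expressed in cerebral cortex and hippocampus, had the highest fold change of the 10 genes. It read 242, 199.7 and 232 on the untreated arrays and 239.7, 264 and 226 on the C1q arrays. The means were 225 ± 22.3 and 243 ± 19.2 (SD, n = 3 each). C1q array 2 was the brightest and untreated array 2 the dimmest, while the other 4 arrays interleaved. The fold change was 1.08 (0.936 to 1.24), with an unadjusted limma p of 0.266 and an adjusted p of 0.9999.

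C1ql2, a protein of hippocampal mossy fibres, was the dimmest member. It read 94.7, 70.1 and 83.0 on the untreated arrays and 79.1, 82.3 and 73.4 on the C1q arrays, with means of 82.6 ± 12.3 and 78.3 ± 4.55 (SD, n = 3 each). The untreated arrays ranged more widely than the C1q arrays, which lay within them. Its mean fell under the filter, and its log2 difference was -0.06, which ran from -0.15 without untreated array 2 to 0.029 without untreated array 1. In a limma fit of all probe sets with no filter its unadjusted p was 0.634.

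Cbln1, the founding cerebellin and the bridge between parallel fibres and Purkinje cells, was the brightest of the 7 ligands. It read 449, 392 and 412 on the untreated arrays and 398, 422 and 408 on the C1q arrays. The C1q arrays all lay inside the untreated range. Its means of 418 ± 28.9 and 409 ± 12.04 (SD, n = 3 each) gave a fold change of 0.981 (0.883 to 1.09).

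Cbln2, a cerebellin of the forebrain as well as the cerebellum, read 332, 322 and 338 on the untreated arrays. On the C1q arrays it read 340.5, 340.0 and 287. C1q array 3 alone was low, and the other 2 C1q arrays lay just above all untreated ones. The means were 331 ± 7.92 and 323 ± 30.6 (SD, n = 3 each), with a fold change of 0.974 (0.862 to 1.10). Without C1q array 3 the log2 difference turned from -0.037 to 0.040, and neither value passed the limma test.

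Cbln3, known from cerebellar granule cells, where it is released together with Cbln1, lay just above the filter. It read 106, 123 and 110.0 on the untreated arrays and 109, 103 and 98.7 on the C1q arrays. The highest reading was on untreated array 2 and the C1q arrays reached above only 1 untreated array. Its means of 113 ± 8.86 and 104 ± 5.43 (SD, n = 3 each) gave the lowest fold change among the 10 genes, 0.930 (0.796 to 1.09), with an unadjusted limma p of 0.331. Of 8 granule cell markers listed beside it, 6 passed the filter. The dimmest, Gabra6, a GABA-A receptor subunit of mature granule cells, read 19.2 untreated. The brightest, Zic1, a transcription factor of granule cells and other neurons, read 1682.

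Cbln4, which binds neurexins and DCC, read 191, 162 and 181 on the untreated arrays and 187, 182 and 165 on the C1q arrays. Both sets of readings nearly coincide. The means were 178 ± 14.6 and 178 ± 11.7 (SD, n = 3 each), and the fold change was 1.00025 (0.868 to 1.15).

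Of the receptors, Adgrb1 (BAI1), which couples to ELMO and DOCK and also organises excitatory synapses, read 1182, 1173 and 1063 on the untreated arrays. It read 1079, 1148 and 1134 on the C1q arrays, all 3 inside the untreated range. The means were 1139 ± 66.1 and 1120.3 ± 36.5 (SD, n = 3 each), with a fold change of 0.984 (0.904 to 1.07).

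Adgrb2 (BAI2), a brain receptor of the same family, was the brightest member and the one with the smallest spread. It read 1491, 1499 and 1396 on the untreated arrays and 1419, 1440.2 and 1442 on the C1q arrays. The C1q arrays again lay inside the untreated range. Its means were 1462 ± 57.3 and 1434 ± 12.6 (SD, n = 3 each), and the fold change of 0.981 had the narrowest interval among the members on the log2 scale, 0.913 to 1.05.

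Adgrb3 (BAI3), the receptor for the C1q-like proteins, read 1161, 1093 and 1157 on the untreated arrays and 1077, 1236 and 1082 on the C1q arrays. C1q array 2 was the highest of the 6 and the other 2 C1q arrays the lowest. The means were 1137 ± 38.0 and 1132 ± 90.5 (SD, n = 3 each), with a fold change of 0.994 (0.906 to 1.09). The signs of Adgrb1 and Adgrb3 were not fixed by the data: with each array centred on its median their log2 differences were 0.0040 and 0.018, and with quantile normalization that of Adgrb3 was 0.0088.

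**Figure D2:**
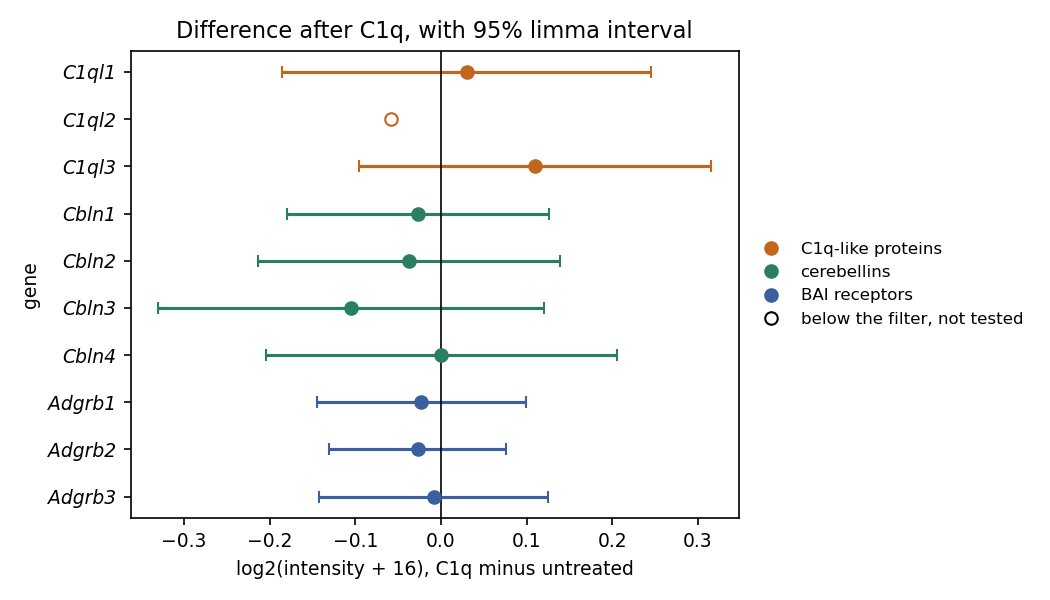
Log2 difference of C1q-treated minus untreated neurons for each gene, on log2(intensity + 16), with 95% limma intervals for the 9 tested genes and an open point for C1ql2. Every interval includes 0, and those of the 3 receptor genes are narrower than those of all ligands.

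None of the 9 tested members was called, and 0 had an unadjusted limma p under 0.05. Over all 17529 probe sets the calls also came to 0%, and 2.49% had an unadjusted p under 0.05. The groups overlapped for all 10 members, while they did not overlap for 5.72% of the tested probe sets, 1.3% with C1q higher and 4.42% with C1q lower. Means were lower after C1q for 6 of the 9 tested members and higher for 3, beside 63.3% lower and 36.7% higher among all tested probe sets. The median log2 difference of the 10 members was -0.025, beside -0.022 over all probe sets. Median centring turned these counts to 4 lower and 5 higher for the tested members and 44.6% lower for all tested probe sets. The balance of signs thus moved with the scaling.

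The intervals bound what these arrays could have missed for each gene taken singly, on the deposited scaling. They rest on array-to-array spread, which can be technical, and so may not bound a response across separate cultures. For the receptors the limits ran from a fold of 0.904 to 1.09, so a change of a receptor signal beyond these limits lay outside the intervals. For the ligands they ran from 0.796, for Cbln3, to 1.24, for C1ql3. The SD within groups on the log2 scale was 0.041 for Adgrb2 and at most 0.12 for a tested member, C1ql3, beside a median of 0.083 over tested probe sets. Among tested probe sets 9.17% had a smaller spread than Adgrb2 and 74.9% a smaller spread than C1ql3. As the dim members carry an unknown share of background, their intervals hold for the signal and may not bound a change of the mRNA.

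Some arrays departed from their group across several members. Untreated array 2 was the lowest of its group for 6 of the 10 genes, and C1q array 3 was also the lowest for 6, all of them ligands. The members' median deviation from the group mean was -0.046 log2 on untreated array 2 and -0.069 on C1q array 3. Over all tested probe sets those arrays deviated by -0.039 and -0.021. C1q array 2 was the lowest for none and the highest for 5.

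In untreated neurons the order of intensities was Adgrb2, Adgrb1, Adgrb3, Cbln1, Cbln2, C1ql3, Cbln4, C1ql1, Cbln3 and C1ql2. This is an order of signals and not of mRNA amounts, since probe sets differ in how they bind. The readings of neighbours in this order overlapped for Adgrb1 and Adgrb3 and for Cbln4 and C1ql1, and did not overlap for the other 7 pairs. The widest step separated receptors from ligands, as Adgrb3 was 2.72 times as bright as Cbln1. Between Adgrb1 and Adgrb3 the ratio was 1.002.

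By rank among the 29215 probe sets, Adgrb2 stood at 3110, Adgrb1 at 4206 and Adgrb3 at 4214, brighter than 85.6% to 89.4% of the array. Cbln1 stood at 9349 and Cbln2 at 10560. C1ql3, Cbln4 and C1ql1 stood at 12543, 13723 and 13837, near the middle of the array. Cbln3 at 16453 and C1ql2 at 18632 were in the dimmer part, and 36.2% of probe sets were dimmer than C1ql2.

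A list of 28 matched genes of other tissues, such as the liver, pancreas and testis, gives the signal where little transcript would be looked for in neurons. Its untreated median was 69.8, with a range of 21.2 to 1277, the highest being the sperm protamine gene Prm1. Adgrb2 was brighter than all 28, and Adgrb1 and Adgrb3 than 27. Cbln1 was brighter than 26, Cbln2 and C1ql3 than 25, Cbln4 than 24 and C1ql1 than 23. Cbln3 was brighter than 20 and C1ql2 than 16, and these 2 genes came nearest to the list's median. All members but Adgrb2 lay within the range of the list. Prm1 and the apolipoprotein gene Apoa4, at 436, were brighter than every ligand.

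**Figure D3:**
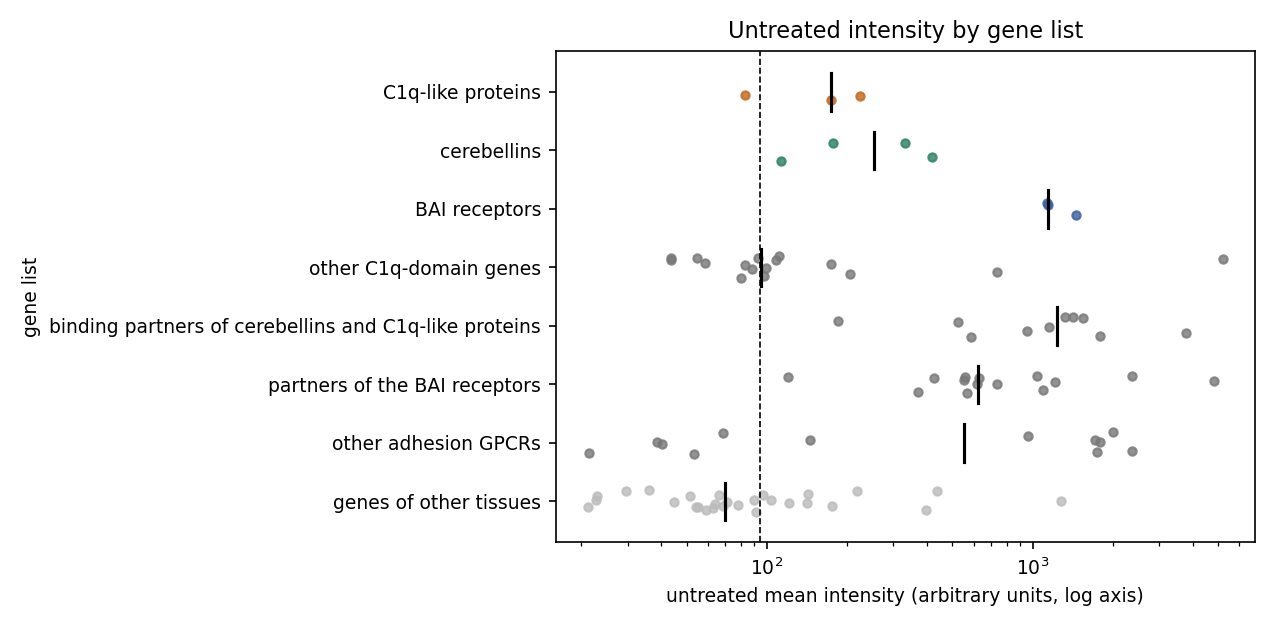
Untreated mean intensity (arbitrary units, log axis) of each gene by list, with a black bar at the list's median and a dashed line at the filter intensity of 94.4. The 3 receptor genes lie between 1137 and 1462, the ligands between 82.6 and 418, and the 28 genes of other tissues have a median of 69.8.

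The genes listed as partners of the ligands were mostly bright, and none was called. The list also holds the neuroligin genes Nlgn1, Nlgn2 and Nlgn3, which are not among the ligands' binding partners named above. The 10 listed genes tested had untreated means that ran from 186 for the kainate receptor subunit gene Grik4 to 3775 for Neo1, the neogenin gene. Neo1 had a fold change of 0.992 (0.915 to 1.07). Dcc, the netrin receptor gene, had the smallest unadjusted limma p of the list, 0.342, at 1792 ± 92.2 untreated against 1855 ± 57.2 in treated neurons (SD, n = 3 each). Means were higher for 6 and lower for 4, or 9 and 1 after quantile normalization or median centring. The 6 include Nlgn1, Nlgn2 and Nlgn3, with log2 differences of 0.031, 0.0008 and 0.023. The neurexin genes Nrxn2 and Nrxn3 read 1554 and 1153 untreated, and the delta receptor gene Grid1 read 588.

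Of 17 listed partners of the BAI receptors 14 were matched and tested, and none was called. Means were higher for 6 and lower for 8, or 9 and 5 with either rescaling, at a median log2 difference of -0.0061. Rac1, the GTPase at the end of the engulfment pathway, read 4820 ± 219 and 4721 ± 91.8 (SD, n = 3 each). Elmo1 and Elmo2 read 631 and 1095 untreated. Pard3, a polarity protein gene, had the smallest unadjusted limma p, 0.191, and read 551 ± 14.5 and 521 ± 12.2 (SD, n = 3 each). Its groups did not overlap, with the C1q arrays lower, as for 4.42% of tested probe sets. Its fold change was 0.946 (0.866 to 1.03).

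Of 25 other genes listed with the C1q-domain family 16 were matched and 7 tested, and 0 of the 7 were called. All 7 had lower means after C1q, also with median centring, or 6 of 7 with quantile normalization, at a median log2 difference of -0.11. The 9 tested genes of other tissues likewise all had lower means, at a median of -0.07, or 6 of 9 lower with either rescaling. Emilin1, an extracellular matrix gene, had the smallest unadjusted limma p, 0.128, and read 111 ± 16.8 and 94.5 ± 5.34 (SD, n = 3 each). Caprin1, the brightest of the list at 5204 and 1 of the 7 tested, was listed with its paralog Caprin2 and has no C1q domain itself. C1qtnf4, a secreted C1q-domain protein gene expressed in brain, read 734 ± 61.2 and 712 ± 14.7 (SD, n = 3 each). The genes of complement C1q itself were dim: C1qa read 83.2, C1qb 109 and C1qc 88.3 untreated, and only C1qb passed the filter.

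Among 21 other adhesion G protein-coupled receptors listed, 12 were matched and 7 tested, with 0 called. Means were higher for 6 and lower for 1, also under both rescalings, at a median log2 difference of 0.011. Adgrl1, a latrophilin gene and the brightest, read 2363 ± 147 and 2379 ± 67.5 (SD, n = 3 each). Adgrl2 had the smallest unadjusted limma p, 0.374, with a fold change of 0.967 (0.893 to 1.05). The 3 BAI genes, at 1137 to 1462, lay between Celsr2 at 964 and Adgrl3 at 1712. Celsr3, Adgrg1, Adgrl2 and Adgrl1 were brighter still. The endothelial receptor gene Adgrl4 and the macrophage receptor gene Adgre1 read 53.2 and 38.8.

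For each receptor the genes with the most similar course over the 6 arrays were sought among 10301 other tested single-gene probe sets. They were Pacsin3 and Trmu for Adgrb2, with Pearson's r of 0.982 and 0.981 across the 6 arrays. For Adgrb1 they were Rpl36 and Pkm, at 0.991 and 0.986, and for Adgrb3 Hyal3 and Alg2, at 0.988 and 0.987. These are the highest of 10301 values for each receptor, over only 6 arrays, and r was over 0.9 for 70, 120 and 156 probe sets respectively. What lies behind these likenesses was not tested.

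**Figure D4:**
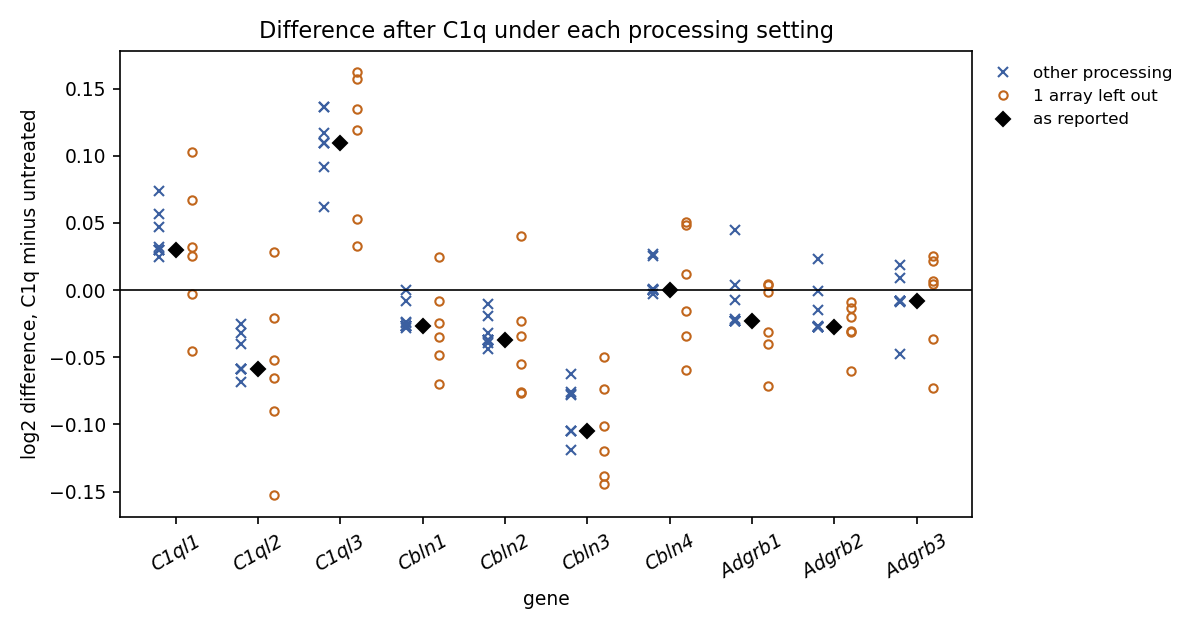
Log2 difference of C1q-treated minus untreated neurons for each gene as reported (diamonds), under other processing (crosses) and with 1 array left out (circles). C1ql3 stays above 0 and Cbln3 below 0 in each of their 15 settings, while the other 8 genes cross 0.

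The signs of C1ql3 and Cbln3 held in each of 15 settings, from 0.03 to 0.16 for C1ql3 and from -0.14 to -0.05 for Cbln3 on the log2 scale. Neither reached an unadjusted limma p under 0.05 in any of them, and the smallest values were 0.131 and 0.165. With 6 arrays the settings share most of their data, so these are not separate observations.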

How the data were processed

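The deposited value table holds 1 intensity for each probe set and array. Per the labels' protocols, biotinylated cRNA was prepared following the usual Affymetrix procedure. How the authors summarised and normalized the deposited intensities is not given in the sources used here. All 6 columns were used. Gene names came from the platform annotation, checked against RefSeq (GRCr8) by gene identifier. Exactly 1 gene was named for 15310, several for 323 and none for 13582.

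Intensities were analysed as log2(intensity + 16) with limma 3.58.1 in R 4.3.3 (lmFit, then eBayes with trend), on the brightest 60% of probe sets. Array medians differed by 0.070 log2, under a limit of 0.1, so values were used as deposited. The members, lists and tests were chosen with earlier results of these data known. All members are named, and from each list the brightest gene and that of smallest unadjusted p. C1qtnf4, Gabra6, Zic1, Prm1 and other genes given by level alone were chosen after their values were seen. A listed gene with several probe sets was represented by the one of highest mean. The fit was also run on simulated data with independent noise for each probe set and no shifts of whole arrays. Its outcome is not given, and no statement here rests on it. Alternatives covered the filter, pseudocount, scaling, variance model, array weights, the replicate block and leaving out each array. The number of arrays limits the precision.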

Additional observations from a re-analysis of the deposited data

How the results depend on the processing

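No tested member was called under any of the 15 alternatives run. The smallest unadjusted and adjusted limma p-values of a member there were 0.131 and 0.576. All 10 members were tested only without the filter, the 1 setting that tested C1ql2. With the brightest 40% of probe sets 5 were tested, and 9 in every other alternative. Of 145 member differences recomputed, 125 kept their sign and 20, of 8 genes, changed it. Median centring gave 5 members with a higher mean in place of 3, with log2 differences of 0.0040 for Adgrb1 and 0.018 for Adgrb3, which was 0.0088 with quantile normalization. With array weights, of which untreated array 3 took 5.51, they were -0.0032 for Cbln4, 0.044 for Adgrb1 and 0.023 for Adgrb2. With any single array left out there were 2 to 6 members with a higher mean, 6 without untreated array 1 and 5 without C1q array 3. Log2 differences then ran from -0.046 to 0.10 for C1ql1, -0.15 to 0.029 for C1ql2, -0.070 to 0.024 for Cbln1, -0.077 to 0.040 for Cbln2, -0.059 to 0.050 for Cbln4, -0.071 to 0.0042 for Adgrb1 and -0.073 to 0.025 for Adgrb3. Over all probe sets the calls numbered 1 without the filter, 447 with array weights, and 0 to 38 with an array left out, the 38 without untreated array 2. The causes were not tested.

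With the replicate number as a block, 9 probe sets and 0 members were called. Deviations of same-numbered arrays from their group means correlated at 0.014, -0.453 and -0.134 across tested probe sets for numbers 1, 2 and 3. For arrays of different numbers the correlations ran from -0.371 to 0.452. Deviations of the 3 arrays of a group sum to 0 and include shifts of whole arrays. The correlations therefore cannot show whether the numbers pair the samples. Each member had 1 probe set, and averaging a gene's probe sets, an alternative listed for levels, was not run. Signal over background, which is unknown here, limits the dim members.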
